A study of Mus musculus with 6 samples.

Results

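The 47 genes described here encode the surface machinery with which leukocytes attach, migrate and home: 18 integrin alpha chains, 8 integrin beta chains, 15 chemokine receptors, 4 receptors for sphingosine 1-phosphate (S1P), and the selectin-pathway molecules Selplg and Cd44. They were chosen by name, and all 47 were found among the 19937 genes that the arrays measured with a probe set of a single gene symbol. Each was read on its probe set with the highest mean over the 6 arrays.

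Integrins are pairs of an alpha and a beta chain that bind matrix proteins and cell-surface ligands, and on leukocytes they change to a high-affinity shape when chemokine receptors or antigen receptors signal. Chemokine receptors couple to G proteins and steer cells along gradients of chemokines. In the thymus, Ccr9 with its ligand Ccl25, Cxcr4 with Cxcl12 and Ccr7 with Ccl19 and Ccl21 are known to guide the entry and movement of precursors, and S1pr1 is known for the exit of mature T cells into blood. Selplg, or PSGL-1, binds selectins on endothelium, and Cd44 binds hyaluronan and marks the earliest precursors.

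The first group, DNTLX3+, holds 3 arrays of double-negative (DN) thymocytes, which carry neither CD4 nor CD8, from wild-type mice. These cells were given a retrovirus, pMSCV-GFP-TLX3, carrying the homeobox oncogene TLX3 of T-cell leukaemia. They were then grown for 4 to 5 weeks on irradiated OP9-DL1, a stromal line that presents the Notch ligand Delta-like 1, in medium with interleukin 7 and Flt3 ligand. The second group, RAG-/-, holds 3 arrays of DN thymocytes of Rag2-/- mice, which cannot assemble antigen receptor genes and are blocked at the DN stage. The protocol, which is the same text for all samples, gives mice of 4 to 6 weeks on C57Bl/6, magnetic depletion of CD4- and CD8-bearing cells and a flow sort of DN cells. The labels call the first group tumoral and the second control, and leave unclear whether the RAG-/- cells were cultured. No array of wild-type cells with the empty virus was analysed here, so Rag2 genotype, TLX3, virus and possibly culture differ together and cannot be told apart. Whether replicates are separate mice or separate cultures is not labelled. All p-values here therefore rest on the spread among 3 arrays a group, and that spread may be only technical.

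All values are on the log2 scale that RMA, the usual summary of Affymetrix probes, gives for each probe set, and differences are DNTLX3+ minus RAG-/- on that log2 scale. Tlx3 had 7.09, 6.52 and 6.45 in DNTLX3+ and 5.40, 5.42 and 5.52 in RAG-/-, while Rag2 had 7.44 to 7.87 in DNTLX3+ and 7.95 to 8.11 in RAG-/-. The sources used here do not place the Rag2 probes inside or outside the deleted part, so Rag2 does not check the labels. Il2ra, Rag1, Ptcra and Cd3e, which mark DN thymocytes, were at 8.93 or higher on every array, although Il2ra (-1.19) and Ptcra (-1.11) fell in DNTLX3+, and Cd4 was at 6.09 or lower. Cd8b1, the CD8 beta chain, was at 6.76 to 7.12 in DNTLX3+ against 5.42 to 5.53 in RAG-/-. Array medians were 6.22 to 6.35, and a group mean under them may be background. The interquartile range of values was narrower in DNTLX3+ (2.47 to 2.85) than in RAG-/- (3.09 to 3.18). The DNTLX3+ replicate 1 array had the narrowest, and also the lowest mean correlation with the other arrays of its group (0.976, against 0.981 for the other DNTLX3+ arrays and 0.993 to 0.994 for the RAG-/- arrays). The number of arrays limits the precision of every value.

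Of the 47 genes, 10 fell in DNTLX3+ and 1 rose. In bulk samples such as these, fewer cells of a type and less RNA per cell cannot be told apart. The falls were the integrin chains Itgax, Itgam, Itga6, Itga4, Itgav, Itgb2 and Itgb7, the chemokine receptors Ccr2 and Cx3cr1, and Cd44. The rise was Ccr9, through which thymocytes sense Ccl25. A call needed a log2 difference of at least 1 in size and, from limma with Benjamini-Hochberg adjustment over 28192 probe sets, a p under 0.05. By that rule 21.3% of the 47 were called lower, where 5.07% of all 19937 genes were, and 1 of 47 was called higher, where 1.44% of all genes were. Among the genes with a group mean above the array medians 8.29% were called lower, and among the 2243 longest of those genes 12.3%. Of the 47, 31 had such a group mean, and 32.3% of these 31 were called lower. That filter lets in genes that are above the array medians in RAG-/- alone, which favours falls. Of the 17 with both group means above the array medians, 4 were called lower (23.5%). The share over all genes under that stricter filter was not computed. The 10 fallen genes had a median gene length of 45616 bases. It was 17738 over all genes and 21092 over those with a group mean above the array medians. Of the 10, 4 were among those 2243, whose median difference was -0.39. The part of gene length in the falls was not tested.

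At the adjusted p alone, 24 of the 47 were lower (51.1%), against 19.4% of all genes, and 5 were higher, against 23.0%. The median difference was -0.53 over the 47 genes and 0.11 over all genes. Values of the groups did not overlap for 34 of the 47 genes (72.3%), 26 with DNTLX3+ below and 8 with DNTLX3+ above. Over all genes they did not overlap for 58.3%, of which 26.0% of all genes had DNTLX3+ below and 32.3% above.

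**Figure D1:**
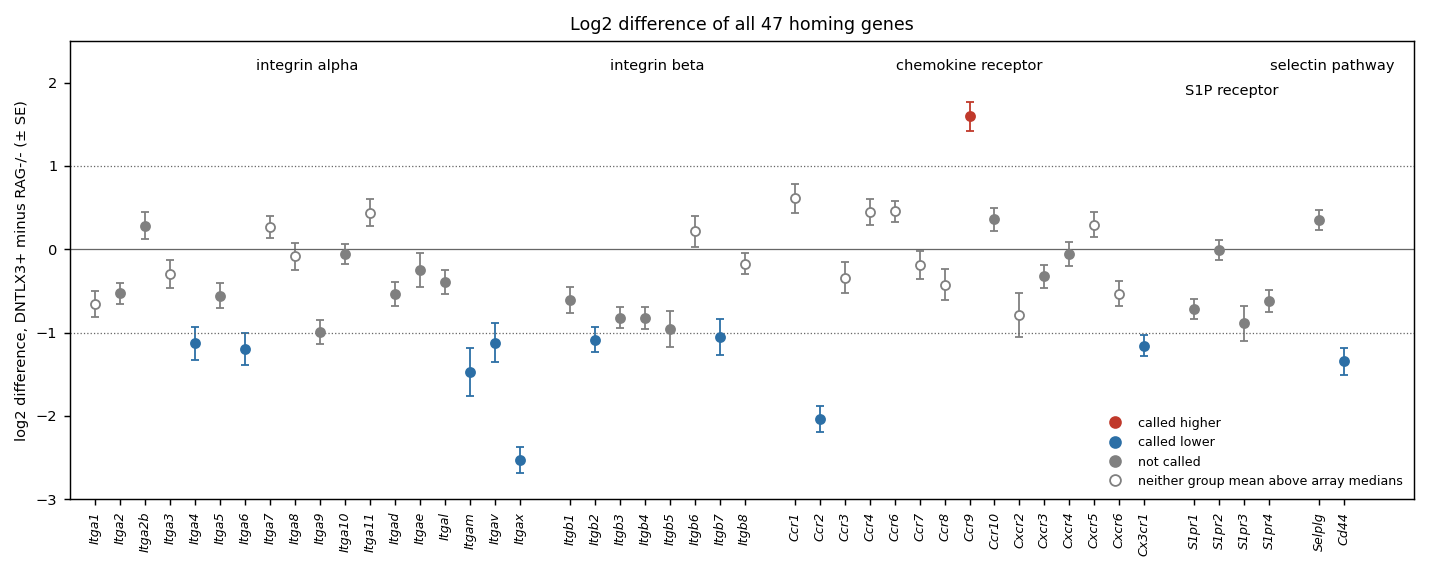
Log2 difference (DNTLX3+ minus RAG-/-) of all 47 genes with its standard error, grouped by role. Blue marks genes called lower, red the gene called higher, grey genes not called, and open points genes with neither group mean above the array medians; dotted lines mark differences of 1 and -1. Ccr9 stands alone above the upper line at 1.59, and Itgax at -2.53 and Ccr2 at -2.04 lie lowest.

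The promoters of 4 called genes that hold a match are shown: Ccr9, which rose, and Itga4, Itgb7 and Itgax, which fell. Each runs from 250 bases before to 50 after a RefSeq start on build GRCm38.p6, 5′ to 3′ along the gene. They lie at chr9:123766961-123767260, plus strand for Ccr9, and at chr2:79255176-79255475, plus strand for Itga4. The others lie at chr15:102231886-102232185, minus strand for Itgb7, and at chr7:128129300-128129599, plus strand for Itgax. For Itgb7 and Itgax the start used is not the 5′ end of the RefSeq gene record, which is at 102233405 and 128129526. Capitals mark matches, on either strand, to TGTGGT (the core of RUNX sites; reverse complement ACCACA) or CCACCC (a core of KLF sites; reverse complement GGGTGG).
Ccr9: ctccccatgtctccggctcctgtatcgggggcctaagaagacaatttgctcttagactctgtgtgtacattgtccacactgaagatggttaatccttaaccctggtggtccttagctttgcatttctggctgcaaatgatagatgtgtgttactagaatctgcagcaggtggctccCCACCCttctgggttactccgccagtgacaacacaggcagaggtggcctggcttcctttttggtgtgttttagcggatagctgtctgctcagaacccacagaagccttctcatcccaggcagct
Itga4: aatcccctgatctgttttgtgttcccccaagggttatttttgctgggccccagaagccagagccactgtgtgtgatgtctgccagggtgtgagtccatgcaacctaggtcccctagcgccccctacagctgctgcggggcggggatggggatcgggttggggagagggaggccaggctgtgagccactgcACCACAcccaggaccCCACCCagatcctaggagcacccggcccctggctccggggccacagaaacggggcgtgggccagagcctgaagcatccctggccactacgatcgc
Itgb7: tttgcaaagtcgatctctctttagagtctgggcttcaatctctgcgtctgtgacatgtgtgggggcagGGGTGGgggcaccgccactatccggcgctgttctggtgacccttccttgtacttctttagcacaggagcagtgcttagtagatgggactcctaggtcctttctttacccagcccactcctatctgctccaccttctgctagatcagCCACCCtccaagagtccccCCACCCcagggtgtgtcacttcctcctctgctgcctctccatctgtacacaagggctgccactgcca
Itgax: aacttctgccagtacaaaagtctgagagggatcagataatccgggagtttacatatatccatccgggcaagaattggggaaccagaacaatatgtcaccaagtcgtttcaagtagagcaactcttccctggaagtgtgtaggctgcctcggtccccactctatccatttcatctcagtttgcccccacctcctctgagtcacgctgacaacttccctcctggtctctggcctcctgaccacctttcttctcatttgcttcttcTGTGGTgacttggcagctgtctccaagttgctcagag

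The search covered 6 motifs on both strands: those above, the homeobox core TAATTA, a variant of it with the letters TAATTG, the E-box CACGTG, and the ETS core CCGGAA. The homeobox motifs can overlap each other. RefSeq promoters were at hand for 34 of the 47 genes, in 37 windows, and for 9 of the 11 called genes. TGTGGT was in 21.6% of the 37 windows, against 16.8% of all 32851 promoters, among them those of the called Itga4, Itgax and Cx3cr1. CCACCC was in 29.7%, against 31.5%, including Itga4, Itgb7, Ccr9 and Cx3cr1. CCGGAA was in 8.11%, against 14.9%, and in none of the 9 called genes. TAATTA was in none of the 37 windows, against 5.29% of all promoters. Neither TAATTG (8.0% of all promoters) nor the E-box CACGTG (7.15%) was in any of them. The promoters of the called Itgam, Itgav, Ccr2 and Cd44, which are not shown, held none of the 6 motifs. A match is only a match of letters in this window.

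Among the integrin alpha chains, 5 of 18 fell and none rose, and the median of the 18 was -0.53. Itga4, the alpha-4 chain that binds Vcam1 and fibronectin with Itgb1 and Madcam1 with Itgb7, had 9.86, 10.60 and 10.59 in DNTLX3+ and 11.52, 11.42 and 11.50 in RAG-/-. All DNTLX3+ arrays lay below all RAG-/- arrays, and replicate 1 was the lowest of them. The difference was -1.13 ± 0.20 (SE), a 2.19-fold lower value (limma adjusted p = 0.00256). Itga6, a laminin-binding chain of Itgb1 and Itgb4, had 7.15, 7.92 and 7.74 in DNTLX3+ against 8.86, 8.72 and 8.83 in RAG-/-. Its groups did not overlap either, and the value was 2.30-fold lower (-1.20 ± 0.19, limma adjusted p = 0.00174). Itgav, the alpha chain of vitronectin receptors, had 6.57, 7.31 and 7.59 in DNTLX3+ and 8.17, 8.20 and 8.46 in RAG-/-, and was 2.17-fold lower (-1.12 ± 0.24, limma adjusted p = 0.00604). DNTLX3+ replicate 1 was again the lowest array. Without that array the differences of Itga4, Itga6 and Itgav were -0.89, -0.97 and -0.83, and the 3 genes were no longer called, although each still passed the adjusted p (0.000899, 0.000915 and 0.00367).

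The other called alpha chains are known from myeloid and dendritic cells. Itgax, or CD11c, the dendritic-cell partner of Itgb2, had 5.57, 5.09 and 5.39 in DNTLX3+ and 7.81, 7.80 and 8.03 in RAG-/-. The groups were far apart, with the DNTLX3+ arrays all under the array medians, and the difference was -2.53 ± 0.15 (limma adjusted p = 3.72e-05). Itgam, or CD11b, the partner of Itgb2 on granulocytes and macrophages, had 5.07, 5.16 and 5.06 in DNTLX3+ and 7.32, 6.43 and 5.95 in RAG-/-. Here the RAG-/- arrays were spread, with replicate 1 the highest and replicate 3 under the array medians. The difference was -1.47 ± 0.29 (limma adjusted p = 0.00427), or -1.09 without RAG-/- replicate 1, still called. A further 2 probe sets list Itgam together with Rpl35 and were not used. Of these, 1 gave 1.05 (limma adjusted p = 0.00071), which meets the rule for a rise, and the other -0.34 (limma adjusted p = 0.0508). Their values cannot be assigned to either gene here. Itgad, the neighbouring CD11d gene, gave -0.54 on its brighter probe set and 0.55 on a dimmer one, neither of them called.

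Itgam, Itgax and Itgad lie side by side on chromosome 7 with no protein-coding gene of the RefSeq table between them, and Itgal lies 35 such genes away. Itgal, the alpha chain of LFA-1, the integrin of lymphocytes that binds Icam1, had 9.31, 9.74 and 9.61 in DNTLX3+ and 9.96, 9.82 and 10.05 in RAG-/-. Its groups did not overlap, but the difference of -0.39 ± 0.15 did not pass (limma adjusted p = 0.0582). Itgae, or CD103, the alpha chain that binds E-cadherin with Itgb7, had 6.42, 6.89 and 7.31 in DNTLX3+ and 7.13, 7.12 and 7.10 in RAG-/-. The DNTLX3+ arrays lay on both sides of the RAG-/- arrays, and the difference was -0.24 ± 0.20 (limma adjusted p = 0.347).

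Itga9, the alpha-9 chain that binds tenascin and Vcam1 with Itgb1, was just short of the minimum difference. It had 6.02, 6.30 and 6.36 in DNTLX3+ and 7.06, 7.30 and 7.30 in RAG-/-, without overlap (-0.99 ± 0.14, limma adjusted p = 0.00106). It was called when array medians were made equal (-1.05) and without DNTLX3+ replicate 2 (-1.03), DNTLX3+ replicate 3 (-1.06) or RAG-/- replicate 1 (-1.07). Itga5, the fibronectin receptor chain, had 6.90, 7.43 and 7.20 in DNTLX3+ against 7.69, 7.77 and 7.72 in RAG-/-, without overlap (-0.56, limma adjusted p = 0.0179, short of the minimum difference). Itga10, a collagen-binding chain, averaged 6.42 ± 0.02 in DNTLX3+ and 6.48 ± 0.11 in RAG-/- (SD, n = 3 each), with overlapping groups. Of the collagen-binding neighbours on chromosome 13, Itga1 gave -0.66 and Itga2 -0.53, and both passed the adjusted p but not the minimum difference. The remaining chains, Itga2b of platelets (0.28), Itga3 (-0.30), Itga7 (0.27), Itga8 (-0.08) and Itga11 (0.44), did not pass the adjusted p.

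Among the 8 beta chains, Itgb2 and Itgb7 fell, none rose and 6 were not called, with a median of -0.83. Itgb2, or CD18, the shared beta chain of Itgal, Itgam, Itgax and Itgad, had 7.35, 7.81 and 7.42 in DNTLX3+ and 8.56, 8.64 and 8.64 in RAG-/-. The groups did not overlap, and the value was 2.12-fold lower (-1.09 ± 0.15, limma adjusted p = 0.000853). Itgb7, the mucosal-homing partner of Itga4 and Itgae, had 6.58, 6.27 and 5.66 in DNTLX3+ and 7.11, 7.19 and 7.37 in RAG-/-, without overlap (-1.05 ± 0.22, limma adjusted p = 0.00528). DNTLX3+ replicate 3 was its lowest array, and without that array the difference was -0.80 and not called. The call on Itgb7 was also lost without RAG-/- replicate 3 (-0.98). That on Itgb2 was lost after cyclic loess (-0.91), after quantile normalization again (-0.89) and, at -0.999, without DNTLX3+ replicate 1.

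Itgb1, the common partner of most alpha chains, had 9.10, 9.58 and 9.56 in DNTLX3+ and 10.13, 9.96 and 9.98 in RAG-/-. It lay below in all DNTLX3+ arrays (-0.61 ± 0.16, limma adjusted p = 0.0129) but short of the minimum difference. Itgb4, the laminin-receptor partner of Itga6, had 8.32, 8.58 and 8.53 in DNTLX3+ and 9.33, 9.19 and 9.39 in RAG-/- (-0.83 ± 0.13, limma adjusted p = 0.0016). Itgb3 and Itgb5, partners of Itgav, both stood lower without overlap. Itgb3 had 6.61, 6.81 and 6.71 in DNTLX3+ and 7.63, 7.41 and 7.56 in RAG-/- (-0.82 ± 0.13, limma adjusted p = 0.00146). Itgb5 had 6.01, 5.65 and 5.39 in DNTLX3+ and 6.93, 6.22 and 6.78 in RAG-/- (-0.96 ± 0.22, limma adjusted p = 0.00801). Itgb5 was called after cyclic loess (-1.09), after quantile normalization again (-1.02), with equal medians (-1.02), with array weights (-1.10) and without DNTLX3+ replicate 1 (-1.12) or RAG-/- replicate 2 (-1.17). Itgb6 (0.21) and Itgb8 (-0.18), further partners of Itgav, had both group means under the array medians and did not pass.

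Read by heterodimer, both chains fell in the pairs Itga4 with Itgb7, Itgam with Itgb2 and Itgax with Itgb2. In the pair Itgal with Itgb2, the beta chain fell and the alpha chain gave -0.39. In the pair Itgae with Itgb7, the beta chain fell and the alpha chain gave -0.24. Itga4, Itga6 and Itgav fell while their partner Itgb1 gave -0.61. Differences between the chains of a pair were not tested.

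**Figure D2:**
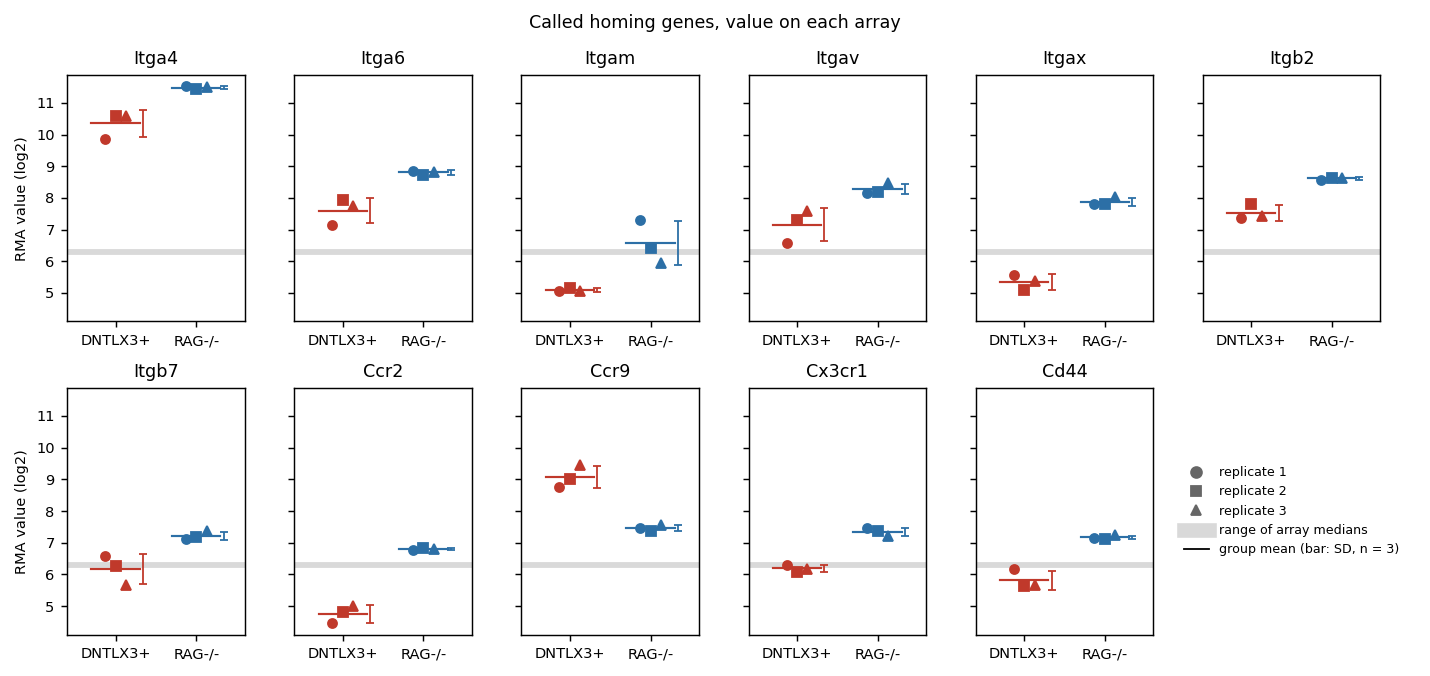
RMA value (log2) of the 11 called genes on each array, with DNTLX3+ in red on the left and RAG-/- in blue on the right of each panel. Symbols are replicates, lines group means, bars the SD (n = 3) and the grey band the range of array medians; the groups do not overlap in any panel, and Itgam shows the widest spread in RAG-/-, 5.95 to 7.32.

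Among the 15 chemokine receptors, Ccr9 rose, Ccr2 and Cx3cr1 fell and 12 were not called, with a median of -0.18. Ccr9 had 8.75, 8.996 and 9.44 in DNTLX3+ and 7.47, 7.38 and 7.55 in RAG-/-. All DNTLX3+ arrays lay more than 1 log2 unit above the highest RAG-/- array, and the value was 3.02-fold higher (1.59 ± 0.18, limma adjusted p = 0.00038). The difference was 1.40 to 1.77 over all 17 alternatives, and the call was kept in each but limma treat (adjusted p = 0.271), which tests against the minimum difference itself. Ccr2, the receptor for Ccl2 on monocytes, had 4.45, 4.80 and 5.01 in DNTLX3+ and 6.75, 6.83 and 6.80 in RAG-/- (-2.04 ± 0.16, limma adjusted p = 7.45e-05). Cx3cr1, the fractalkine receptor of monocytes, macrophages and NK cells, had 6.31, 6.09 and 6.18 in DNTLX3+ and 7.47, 7.36 and 7.22 in RAG-/- (-1.16 ± 0.13, limma adjusted p = 0.000384). For both genes the DNTLX3+ mean lay under the array medians.

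Ccr9 and Ccr2 lie in one cluster of receptor genes on chromosome 9, in the order Ccr9, Cxcr6, Ccr1, Ccr3 and Ccr2 with at most 1 protein-coding gene between neighbours. Along that order the differences were 1.59, -0.53, 0.61, -0.34 and -2.04. Ccr1 averaged 4.05 ± 0.34 in DNTLX3+ and 3.43 ± 0.05 in RAG-/- (SD, n = 3 each), and Cxcr6 averaged 4.53 ± 0.25 in DNTLX3+ and 5.06 ± 0.07 in RAG-/-, all under the array medians. Both passed the adjusted p (0.0199 and 0.019, limma) without reaching the minimum difference, and Ccr3 did not pass (0.16). Ccr1 no longer passed after quantile normalization again (limma adjusted p = 0.155) or after cyclic loess (0.172).

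Cxcr4, the Cxcl12 receptor that acts with the pre-T-cell receptor in DN thymocytes, was among the brightest probe sets and did not pass. It had 11.19, 11.66 and 11.47 in DNTLX3+ and 11.52, 11.49 and 11.47 in RAG-/-, so that the DNTLX3+ arrays lay on both sides of the RAG-/- arrays. The difference was -0.06 ± 0.14 (limma adjusted p = 0.762), and its sign turned after quantile normalization again (0.01) and without DNTLX3+ replicate 1 (0.07). Cxcr3, a receptor of activated T and NK cells, had 6.33, 6.71 and 6.54 in DNTLX3+ and 6.94, 6.78 and 6.83 in RAG-/- (-0.32, limma adjusted p = 0.0831). Ccr7, the receptor of mature T and dendritic cells, had 6.26, 5.81 and 6.21 in DNTLX3+ and 6.22, 6.10 and 6.51 in RAG-/-, with overlapping groups around the array medians (-0.18, limma adjusted p = 0.393).

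Cxcr2, the neutrophil receptor, had 3.55, 3.56 and 3.84 in DNTLX3+ and 5.10, 4.34 and 3.90 in RAG-/-, all under the array medians. As for Itgam, RAG-/- replicate 1 was the highest and replicate 3 the lowest of its group. The difference of Cxcr2 was -0.79 ± 0.27 (limma adjusted p = 0.0382), and -0.47 without RAG-/- replicate 1 (adjusted p = 0.103). S100a8 and S100a9, granulocyte genes on the myeloid marker list, ran the same way: S100a8 had 8.30, 7.53 and 5.99 and S100a9 had 8.77, 8.22 and 6.54 in RAG-/- replicates 1, 2 and 3. These 2 genes were picked from the list of 27 after their values were seen. The summed signal of the whole list did not run that way, with 11450, 9959 and 11269 in the same replicates. Any link of S100a8 and S100a9 to the differences of Itgam and Cxcr2 was not tested. Of the remaining receptors, Ccr4 (0.44) and Ccr6 (0.45) passed the adjusted p (0.0453 and 0.019) as higher. Both group means of each lay under the array medians. Neither passed after quantile normalization again (limma adjusted p = 0.25 and 0.179) or after cyclic loess (0.337 and 0.273). Ccr8 (-0.42), Ccr10 (0.36) and Cxcr5 (0.29) did not pass.

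Of the 4 S1P receptors, none was called, and 3 passed the adjusted p as lower. S1pr1, the egress receptor of T cells, had 5.73, 5.90 and 5.80 in DNTLX3+ and 6.49, 6.49 and 6.60 in RAG-/-, without overlap (-0.72 ± 0.12, limma adjusted p = 0.00207). S1pr4, a receptor of lymphoid and myeloid cells, had 8.01, 7.66 and 7.82 in DNTLX3+ and 8.40, 8.50 and 8.45 in RAG-/-. Its groups did not overlap either (-0.62 ± 0.13, limma adjusted p = 0.00617). S1pr4 did not pass after quantile normalization again (-0.40, limma adjusted p = 0.0709) or after cyclic loess (-0.44, limma adjusted p = 0.0536). S1pr3, known from stromal and endothelial cells, had 5.89, 6.32 and 6.16 in DNTLX3+ and 6.87, 6.69 and 7.47 in RAG-/-. RAG-/- replicate 3 was its highest array, as it was for the epithelial gene Prss16 (12.17, against 11.18 and 11.12 in replicates 1 and 2). The difference of S1pr3 was -0.89 ± 0.21 (limma adjusted p = 0.0096), -0.65 without RAG-/- replicate 3, and -1.04 with a call without RAG-/- replicate 2. S1pr2, which restrains migration, had 7.73, 7.75 and 7.61 in DNTLX3+ and 7.81, 7.62 and 7.70 in RAG-/-, with overlapping groups (-0.01 ± 0.12, limma adjusted p = 0.946). The sign of S1pr2 turned after cyclic loess (0.15) and after quantile normalization again (0.19).

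In the selectin pathway, Cd44 fell and Selplg was not called. Cd44 had 6.16, 5.63 and 5.67 in DNTLX3+ and 7.15, 7.11 and 7.23 in RAG-/-. The groups did not overlap, the DNTLX3+ mean lay under the array medians, and the difference was -1.35 ± 0.16 (limma adjusted p = 0.000513). It was -1.25 to -1.52 over the alternatives. Selplg had 10.79, 11.02 and 10.97 in DNTLX3+ and 10.62, 10.57 and 10.54 in RAG-/-, without overlap, and was 1.27-fold higher (0.35 ± 0.12, limma adjusted p = 0.046), short of the minimum difference. Selplg passed after cyclic loess (limma adjusted p = 0.0098) but not with equal medians (0.125) or with the replicate block (0.0905). With each array left out, it passed only without DNTLX3+ replicate 1 (0.0147).

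The ligands were read from lists of the pathway's other genes. Of 31 chemokines, 7 fell, none rose and 24 were not called, with a median of -0.10. Among all genes, 5.07% were called lower and 1.44% higher. Ccl25, the ligand of Ccr9, had 5.45, 6.05 and 5.57 in DNTLX3+ and 10.62, 10.28 and 11.20 in RAG-/- (-5.01 ± 0.24, limma adjusted p = 1.18e-05), while its receptor was the one that rose. Ccl5 (-3.68), the Ccr7 ligand Ccl19 (-2.12) and the Cxcr4 ligand Cxcl12 (-1.61) were the next in size. Cxcl12 had 6.06, 6.14 and 5.81 in DNTLX3+ and 7.36, 7.41 and 8.06 in RAG-/-. Xcl1 (-1.25), the Cxcr6 ligand Cxcl16 (-1.21) and the Cxcr3 ligand Cxcl10 (-1.17) were the others. Thymic epithelium makes Ccl25 and Cxcl12, and NK and T cells make Ccl5 and Xcl1.

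Of 26 integrin ligands, 3 fell, none rose and 23 were not called (median -0.11), beside 5.07% of all genes called lower and 1.44% higher. Vcam1, the ligand of Itga4 with Itgb1, had 5.75, 5.98 and 5.24 in DNTLX3+ and 9.15, 8.86 and 9.13 in RAG-/- (-3.39 ± 0.19, limma adjusted p = 2.93e-05). The other falls were tenascin C, which Itga9 binds (Tnc, -1.58), and fibronectin, which Itga4, Itga5 and Itgav bind (Fn1, -1.16). All 3 ligands had DNTLX3+ means under the array medians.

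**Figure D3:**
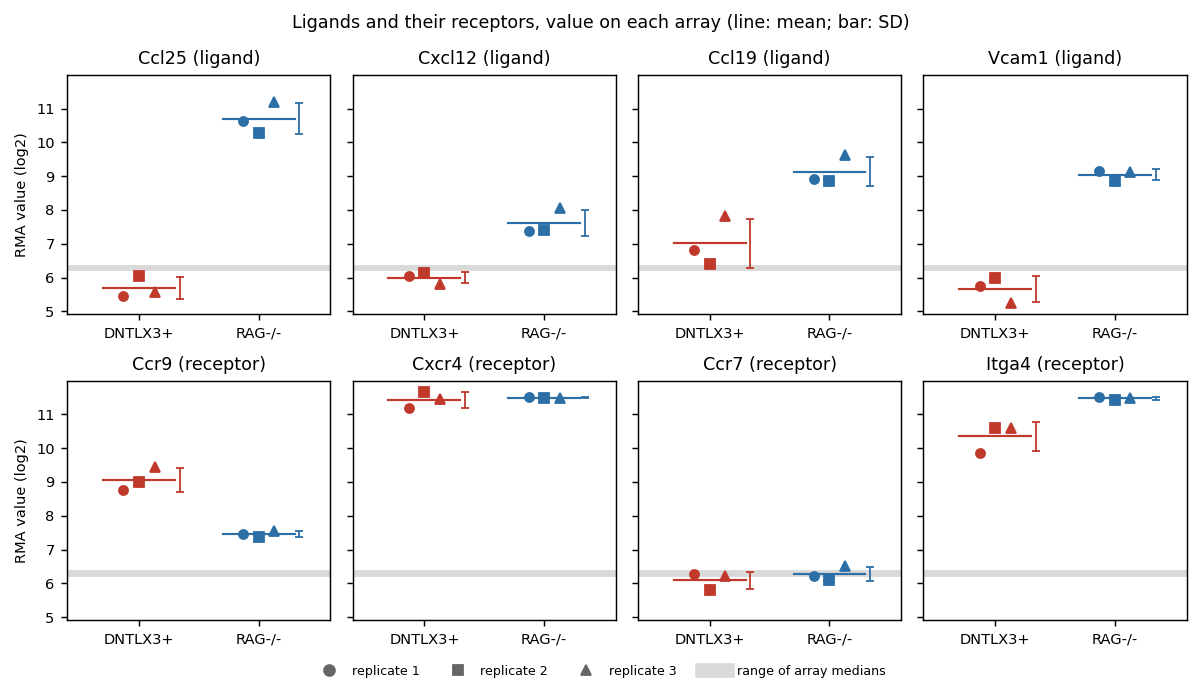
RMA value (log2) on each array for 4 ligands (top) and a receptor of each (bottom), with DNTLX3+ in red on the left and RAG-/- in blue on the right. Symbols are replicates, lines means, bars the SD (n = 3) and the grey band the range of array medians. Ccl25, Cxcl12, Ccl19 and Vcam1 are lower in DNTLX3+, whereas Ccr9 is higher, Itga4 lower, and Cxcr4 and Ccr7 overlap between the groups.

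The other genes of these pathways were read from 5 further lists, beside the 5.07% of all genes called lower and the 19.4% lower at the adjusted p alone. Of 32 genes of integrin activation and signalling, which include the talins and kindlins that switch integrins on, none was called in either direction, while 8 passed the adjusted p as lower and 1, the kinase Ptk2b (0.39), as higher. Of 32 genes of chemokine receptor signalling, Rgs18, a brake on G-protein signals known from platelets and myeloid cells, fell (-1.41) and 31 were not called. Of 19 genes of S1P metabolism and egress, Sgpl1, the lyase that degrades S1P (-1.34), and Plpp3, a lipid phosphatase (-1.07), fell and 17 were not called. Sgpl1 had 7.90, 8.18 and 8.17 in DNTLX3+ and 9.24, 9.16 and 9.87 in RAG-/-, a 2.53-fold lower value (limma adjusted p = 0.00115). Klf2, a transcription factor that drives S1pr1 in T cells, gave -0.37 (limma adjusted p = 0.0338), short of the minimum difference. Of 26 genes of selectins and of selectin-ligand synthesis, the sialyltransferase St3gal6 fell (-1.15) and 25 were not called. Tpst1, which sulphates tyrosines of Selplg, stood at 0.99 (limma adjusted p = 0.000429), just short of the minimum difference. Of 28 other homing and adhesion receptors, the adhesion molecules Alcam (-1.26) and Cd48 (-1.08) fell and 26 were not called. The medians of these 5 lists were -0.17, -0.11, -0.12, -0.02 and 0.05, in that order, against 0.11 over all genes.

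Markers of other cell types moved with the same contrast, and Itgax, Itgam, Itgb2, Ccr2 and Cx3cr1 are also known from such cells. Of 27 myeloid and dendritic markers, 19 fell and 8 were not called. Their summed linear signal was 1943 to 2173 per array in DNTLX3+ and 9959 to 11450 in RAG-/-. In DNTLX3+, 22 of the 27 had a mean under the array medians, Csf1r (5.93) and Adgre1 (4.93) among them, against 4 in RAG-/-. Of 18 NK and innate lymphoid markers, 11 fell and 7 were not called, with sums of 1721 to 2206 in DNTLX3+ and 3533 to 4181 in RAG-/-. The DNTLX3+ means of 14 of the 18 were under the array medians, Ncr1 and Klrb1c included, against 5 in RAG-/-. The thymic epithelial list held 18 markers, of which 9 fell and the other 9 stayed uncalled. Its sums were 2001 to 2212 in DNTLX3+ and 7880 to 13979 in RAG-/-. In DNTLX3+, 10 of its means lay under the array medians, against 2 in RAG-/-. The NK list includes Ccl5 and Xcl1, and the epithelial list includes Ccl25. These are fallen chemokines given above, so the marker lists and the chemokine list are not separate.

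On the lists for other cells a smaller share of the markers was called lower than on the lists above. Each share was still over the 5.07% of all genes, and it was largest for the mature T-cell markers. Of 14 B-cell markers 1 fell (sums 1238 to 1343 in DNTLX3+, 1814 to 1886 in RAG-/-), of 18 fibroblast and endothelial markers 1 fell (5374 to 5817 in DNTLX3+, 5051 to 5434 in RAG-/-), and of 12 mature T-cell markers 4 fell (2733 to 3165 in DNTLX3+, 3972 to 4242 in RAG-/-). Of 18 DN and coreceptor genes, 3 fell, 1 rose and 14 were not called. Their sums were 24790 to 31238 in DNTLX3+ and 38116 to 39511 in RAG-/-. At the adjusted p alone, 10 of the 18 were lower and 3 higher, with a median difference of -0.45. Over all genes, 19.4% were lower at the adjusted p and 23.0% higher. Thy1 is on this list and on the fibroblast and endothelial list, so both sums contain it. The part of all these cell types in the differences of the 47 genes was not tested.

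**Figure D4:**
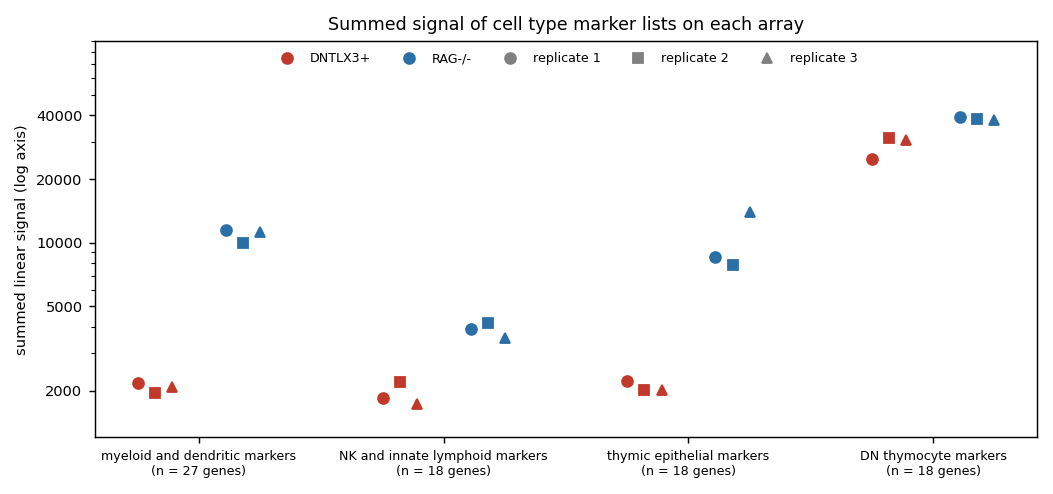
Summed linear signal (log axis) of 4 marker lists on each array, DNTLX3+ in red to the left of RAG-/- in blue, with a symbol for each replicate. The myeloid and dendritic sums are 1943 to 2173 in DNTLX3+ and 9959 to 11450 in RAG-/-, and RAG-/- replicate 3 stands highest for the epithelial list at 13979.

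With the values scaled by cyclic loess or quantile normalized again, 10 of the 47 genes were called lower and Ccr9 higher, as with the deposited values, but the members of the 10 were not all the same. Itgav and Itgb2 left and Itgb5 and Cxcr2 joined in both. Itgax, Ccr2, Ccr9, Cx3cr1, Itgam and Cd44 were called in every alternative that tested them other than limma treat, and Itgax and Ccr2 in that one too.

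**Figure D5:**
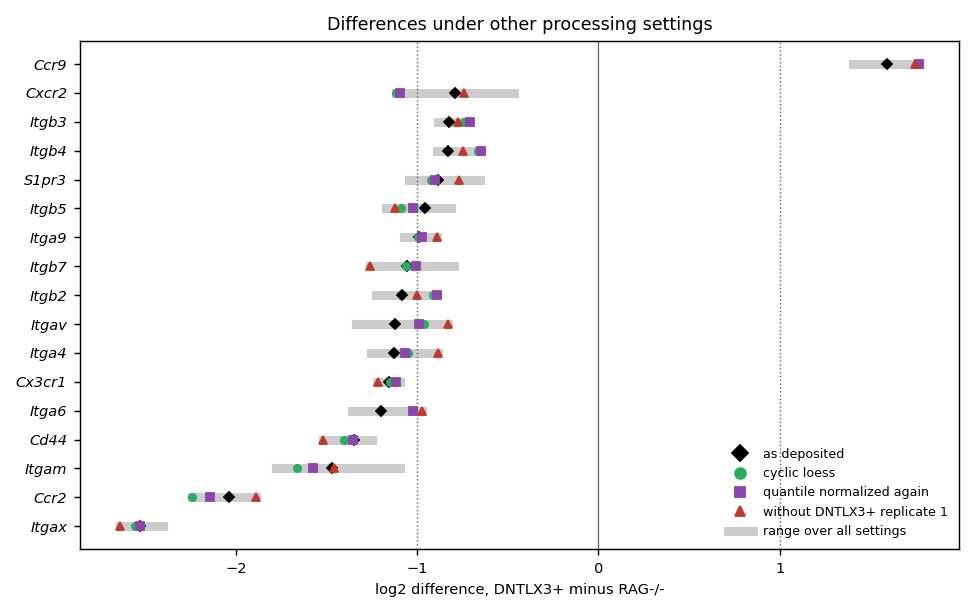
Log2 difference (DNTLX3+ minus RAG-/-) of the 17 genes called or with a difference of at least 0.75 in size, as deposited and under 3 alternatives, with the range over all settings in grey; dotted lines mark -1 and 1. Itgax stays between -2.64 and -2.40 and Ccr9 between 1.40 and 1.77. The ranges of the called Itga4, Itga6, Itgav, Itgb2 and Itgb7 cross the line at -1, as do those of the uncalled Itgb5, Itga9, Cxcr2 and S1pr3.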

How the data were processed

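Total RNA of 6 samples was hybridised to 1-colour Affymetrix arrays, and groups and replicate numbers came from the sample titles. The deposited values are log2 values per probe set. The submitters' processing notes name RMA, the affy package and R 2.9.0. RMA corrects background, quantile normalizes and summarises probes, which removes differences in total signal between arrays. The authors' genome build was not given in the sources used here. Of 34760 probe sets, 6568 with low ID numbers and no listed gene were left out, and 28192 were tested. Of these, 21640 had a single gene symbol in the platform annotation, 1321 several and 5231 none, which gave 19937 genes.

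Groups were compared with limma 3.58.1 in R 4.3.3 (lmFit, eBayes, two-sided, no covariate), which was tested on simulated data. The 47 genes and all lists were chosen with earlier results of these data known, and ligand panels were picked after values were seen. Each called gene and each gene at 0.75 or more in size was given with its 6 values, and up to 4 called genes per pathway list and direction were named, largest first. Others named from these lists (Ptk2b, Klf2, Tpst1, Xcl1, Cxcl16, Cxcl10) and the marker genes were chosen after their values were seen. Of the 19937 genes, 19855 matched the RefSeq table (GRCm38.p6), used for gene length, neighbours and promoters. Alternatives were other scalings, filters on dim probe sets, variance estimates, array weights, a replicate block, averaged probe sets, other minimum differences, and each array left out. Plots were drawn with matplotlib 3.10.9.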

Additional observations from a re-analysis of the deposited data

How the results depend on the processing

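Under 17 alternatives, 8 to 12 of the 47 genes were called lower and Ccr9 alone higher, except as follows. With no minimum difference 24 were lower and 5 higher, and with limma treat 2 and 0. Leaving out each array in turn gave 7 to 12 lower and 1 higher, with a median difference of -0.53 to -0.42. Both the 7 and the -0.42 came without DNTLX3+ replicate 1, where Itga4, Itga6, Itgav and Itgb2 lost the call and Itgb5 gained it. Signs turned for 6 genes, none of them called. Quantile normalization again gave -0.065 for Itgb6, 0.0079 for Cxcr4, -0.0068 for Cxcr5 and 0.19 for S1pr2. Cyclic loess gave -0.10 for Itgb6, -0.026 for Cxcr5 and 0.15 for S1pr2, and the mean of its probe sets gave 0.0053 for Itgad. With each array left out, Itga8 ran from -0.20 to 0.036 and Cxcr4 from -0.17 to 0.068, each highest without DNTLX3+ replicate 1. S1pr2 ran from -0.057 to 0.039, and was above 0 without DNTLX3+ replicate 3 (0.031) or RAG-/- replicate 1. The median of all genes was 0.11 as deposited, 0.04 when quantile normalized again and 0.00047 under cyclic loess, and that of the 47 genes was -0.53, -0.51 and -0.48. With the replicate number as a block, 10 were called lower and 1 higher, with a median of -0.53. Same-numbered arrays did not deviate together (correlations of -0.11, 0.06 and -0.00), so the numbers were not taken as pairs. Detection calls were not used here, so levels under the array medians set no true size. The cause of these changes was not tested.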
